A study of Psammomys obesus with 8 samples.

Results

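Neurexins, neuroligins and CNTNAP2 (contactin-associated protein 2) are neuronal surface proteins of synapses and axons, and the 5 genes described here are Nrxn2, Nrxn3, Nlgn1, Nlgn2 and Cntnap2. They were measured as captured methylated DNA in the hypothalamus of the fat sand rat (Psammomys obesus), a gerbil prone to obesity and diabetes on energy-rich food. The members are the 182 assembled sand rat contigs, of 548060 in all, that the deposited contig names place inside one of these genes by similarity to mouse, at distance 0. Nrxn3 holds 77 of them, Cntnap2 62, Nrxn2 20, Nlgn1 14 and Nlgn2 9. All 5 genes are among the 18910 mouse genes with at least 1 contig inside.

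The 8 libraries came from male offspring aged 16 weeks, 4 with the titles Standard-Low lipid (diet tag Standard Lipid) and 4 with the titles Low-Low lipid (diet tag Low lipid), called standard-low and low-low here. The series design names the fathers' diet as the difference and the series title that of the parents, and the labels do not say to which generation each word of a group name refers. Fragments were enriched with MethylMiner, a methyl-CpG binding protein on beads, and sequenced. More reads over a contig therefore reflect more methylation, more CpG to bind or more copies of the sequence, and these cannot be told apart here. Totals ran from 11646180 to 12156525 counts in the standard-low libraries and from 12528388 to 13533441 in the low-low libraries. Captured DNA shows no expression, so the tissue label was not checked against expressed markers.

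Neurexins sit on the presynaptic membrane and bind neuroligins on the postsynaptic side, and the pair of families aligns transmitter release with receptors across the cleft. Nrxn3, Nlgn1 and Cntnap2 are very long genes, Nlgn2 is short, and neurexin genes make many isoforms from alternative promoters and splicing. CNTNAP2 is a neurexin-related protein that pairs with contactins and helps to cluster potassium channels beside the nodes of myelinated axons. In mammals most CpG outside CpG islands is methylated, gene bodies included, and a methyl-CpG binding protein holds fragments with more methylated CpG more strongly.

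The contigs differ in what the capture step could bind. Below are up to 300 bases of the contig with the lowest unadjusted p in each of 4 genes, taken where CpG is densest and printed 5′ to 3′ as assembled, with every CpG in capitals. The Nlgn2 stretch holds 29 CpG and the Nrxn2 stretch 10, against 7 each in those of Nrxn3 and Cntnap2. The Nlgn1 contig is not shown because only 92 of its 564 bases align to mouse.
Nlgn2 contig 3789378: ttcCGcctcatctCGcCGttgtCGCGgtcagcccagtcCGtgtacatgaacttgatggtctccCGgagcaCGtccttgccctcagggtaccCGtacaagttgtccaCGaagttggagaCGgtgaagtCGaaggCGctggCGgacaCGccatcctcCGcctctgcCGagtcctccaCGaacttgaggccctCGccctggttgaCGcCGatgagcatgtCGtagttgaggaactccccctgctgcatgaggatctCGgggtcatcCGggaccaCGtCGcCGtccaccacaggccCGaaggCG
Nrxn2 contig 2383664: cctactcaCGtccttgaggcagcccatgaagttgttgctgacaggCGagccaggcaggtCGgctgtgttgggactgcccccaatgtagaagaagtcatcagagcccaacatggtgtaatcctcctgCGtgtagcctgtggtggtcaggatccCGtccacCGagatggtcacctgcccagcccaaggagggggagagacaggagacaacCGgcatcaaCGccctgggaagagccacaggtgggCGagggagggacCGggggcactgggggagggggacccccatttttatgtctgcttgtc
Nrxn3 contig 4154081: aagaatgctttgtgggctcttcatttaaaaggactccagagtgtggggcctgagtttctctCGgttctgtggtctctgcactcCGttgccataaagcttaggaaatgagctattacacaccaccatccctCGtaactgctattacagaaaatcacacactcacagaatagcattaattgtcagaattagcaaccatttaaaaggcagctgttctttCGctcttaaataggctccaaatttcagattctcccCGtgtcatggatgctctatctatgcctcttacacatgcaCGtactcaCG
Cntnap2 contig 1312323: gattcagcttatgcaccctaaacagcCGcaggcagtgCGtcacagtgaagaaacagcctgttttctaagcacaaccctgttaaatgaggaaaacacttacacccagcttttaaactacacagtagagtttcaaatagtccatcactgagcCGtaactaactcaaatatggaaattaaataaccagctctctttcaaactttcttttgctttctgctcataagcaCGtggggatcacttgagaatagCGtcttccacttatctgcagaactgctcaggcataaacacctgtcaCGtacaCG

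None of the 5 genes differed between the groups beyond the spread of the libraries, whether read contig by contig or summed. No member contig passed an edgeR adjusted p of 0.05 (0 of 182, with 0.0268% of the whole table called), and 0 passed with DESeq2 or limma voom. The smallest edgeR adjusted p among them was 0.802. At an unadjusted p under 0.05 there were 9 member contigs, 5 higher and 4 lower in standard-low, or 4.95% against 5.68% of the table. The libraries of the groups did not overlap at 6 member contigs, or 3.3% of the members and 3.24% of the table. Of these 4 were higher in standard-low (1.63% of the table) and 2 lower (1.61% of the table). Of the 182, 97 (53.3%) had a positive log2 fold change, against 50.3% of all contigs. The member shares lie near those of the table in each of these counts.

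Summed over their contigs and tested among all 18910 genes, 0 of the 5 passed an edgeR adjusted p of 0.05 (0.00529% of genes called) or an unadjusted p of 0.05 (6.03% of genes). The gene sums of standard-low and low-low overlapped in all 5 genes (3.49% of all genes did not overlap). Values below are CPM, read counts scaled to each library's total times its TMM factor, in libraries 1 to 4 of each group. Positions are those of the mouse matches in the deposited names, on a mouse build not named there, and exon or intron annotation was not used here.

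**Figure D1:**
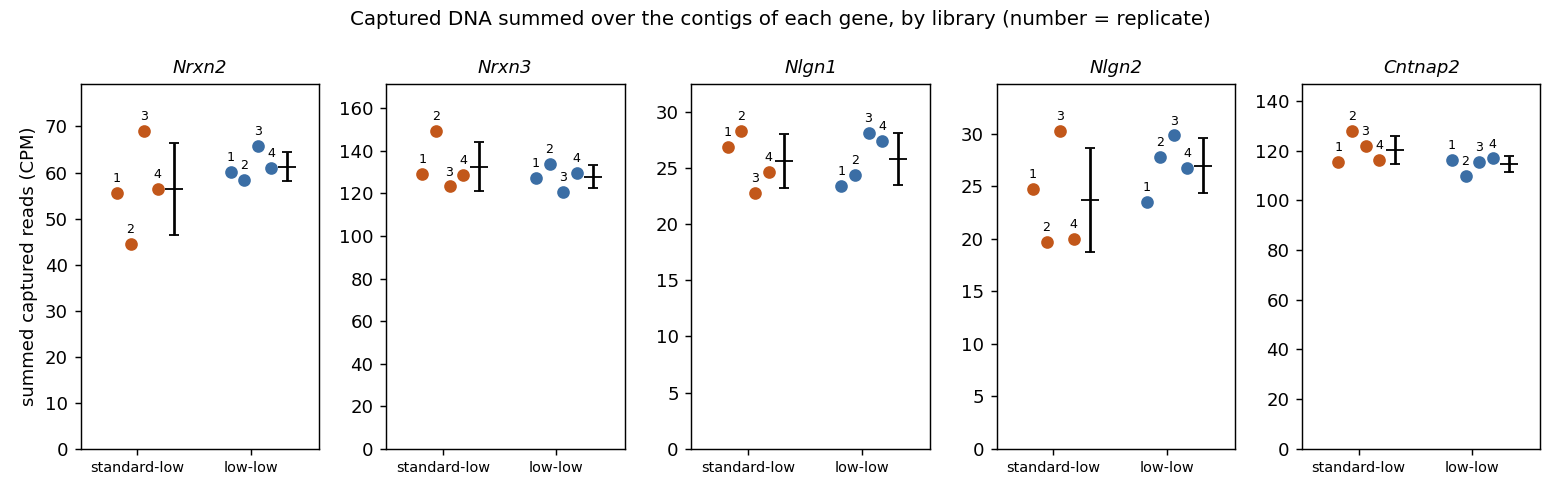
Summed captured reads per gene in CPM (vertical axis, from 0) for the 4 standard-low and 4 low-low libraries, each numbered by its replicate, with mean and SD as bars. In Nrxn2 and Nlgn2 standard-low 3 lies highest and standard-low 2 lowest of the 8, while in Nrxn3 and Cntnap2 standard-low 2 lies highest.

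Nrxn2, a presynaptic neurexin, had its 20 contigs on mouse chromosome 19 between 6430974 and 6533494, a span of 102.5 kb with 19.5 contigs per 100 kb. Its summed level was 55.5, 44.5, 69.0 and 56.4 CPM in standard-low, against 60.1, 58.4, 65.7 and 61.0 CPM in low-low. Standard-low 1, 2 and 4 lay below all low-low libraries and standard-low 3 above all of them. The means were 56.3 ± 9.99 CPM in standard-low and 61.3 ± 3.15 CPM in low-low (SD, n = 4 each), a log2 fold change of -0.12 ± 0.0889 (SE; edgeR adjusted p = 0.827). The spread was 17.7% of the mean in standard-low and 5.13% in low-low, where counting error alone would give 3.87% and 3.54%. Of its contigs 6 had a positive and 14 a negative log2 fold change, with a median of -0.13, against a median of 0.00174 over all contigs. Without standard-low 3 the gene's log2 fold change was -0.23 (edgeR adjusted p = 0.128), and without standard-low 2 it was -0.02.

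Within Nrxn2 the contig with the lowest p, 2383664, matched positions 6472023 to 6472428. It had 2.14, 1.35, 1.82 and 1.27 CPM in standard-low, against 1.76, 2.67, 2.33 and 2.69 CPM in low-low. Low-low 1 fell among the standard-low values, so the groups overlapped (log2 fold change -0.52 ± 0.241 SE, edgeR unadjusted p = 0.0332 and adjusted p = 0.858). The most captured contig of all members was Nrxn2 contig 1816667, of 1863 bases with 82 CpG, at 6489490 to 6491254. It held 13.0 ± 3.8 CPM in standard-low and 14.3 ± 1.69 CPM in low-low (SD, n = 4 each; edgeR adjusted p = 0.955), with standard-low values from 8.01 to 16.9 CPM. The contig densest in CpG, 3323076 with 5.33 per 100 bases, held 1.18 ± 0.381 CPM in standard-low and 1.35 ± 0.35 CPM in low-low. With the span cut into 4 equal stretches by mouse coordinate, all 5 contigs in the second had a negative log2 fold change, with sums of 15.2 ± 1.95 CPM in standard-low and 17.5 ± 1.66 CPM in low-low (SD, n = 4 each). In the third, where contig 1816667 lies, the sums ran from 11.3 to 28.0 CPM in standard-low and from 19.3 to 22.6 CPM in low-low.

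Nrxn3, the other neurexin, had contigs on mouse chromosome 12 from 88724875 to 90332612, 4.79 per 100 kb over 1608 kb. Contigs 1287211, 675141, 4427207, 2102217 and 4178482 matched overlapping positions within 89667463 to 89667844, and 2103136 and 1632311 within 88891074 to 88891155. Whether each of them comes from this gene was not tested, and all enter its contig counts and sums. The summed level of Nrxn3 was 129, 149, 123 and 129 CPM in standard-low, against 127, 134, 121 and 129.6 CPM in low-low. Standard-low 2 was the highest of the 8, and the other standard-low libraries lay inside the low-low range. The means were 132.6 ± 11.4 CPM in standard-low and 128 ± 5.51 CPM in low-low (SD, n = 4 each), a log2 fold change of 0.05 ± 0.056 (SE; edgeR adjusted p = 0.885). Without standard-low 2 it was -0.01. Counting error would give a spread of 2.52% in standard-low and 2.45% in low-low, against 8.58% and 4.3% observed.

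Along Nrxn3, 43 contigs had a positive and 34 a negative log2 fold change, from -0.70 to 0.89. All 4 member contigs whose standard-low libraries lay above every low-low library were in this gene. Nrxn3 also holds 77 of the 182 member contigs, and 1.63% of all contigs were higher in standard-low without overlap. Whether these 4 contigs exceed the gene's share was not tested. Contig 4154081, at 88860385 to 88860747, had the lowest p, with 1.45, 1.69, 0.8288 and 0.761 CPM in standard-low, against 0.535, 0.743, 0.642 and 0.614 CPM in low-low. The margin between the lowest standard-low and the highest low-low library is small, and the contig averaged 11.1 counts per library (log2 fold change 0.89 ± 0.353 SE, edgeR unadjusted p = 0.0137 and adjusted p = 0.823). Contig 495754 also had no overlap, at 1.64 ± 0.318 CPM in standard-low and 1.06 ± 0.207 CPM in low-low (SD, n = 4 each; edgeR adjusted p = 0.855), but 55 of its 431 bases align to mouse. The remaining pair were contig 1607740, aligned over 31 bases, and contig 273380, aligned over 385 of 389 bases. Contig 273380 held 2.68 ± 0.278 CPM in standard-low and 2.03 ± 0.301 CPM in low-low (edgeR adjusted p = 0.894). The most captured contig, 2666316 near the upper end of the span, held 5.65 ± 0.359 CPM in standard-low and 5.74 ± 0.572 CPM in low-low. The densest in CpG, 3587597, held 3.93 ± 0.822 CPM in standard-low and 4.38 ± 0.735 CPM in low-low. Contigs were most frequent in the stretch with the lowest coordinates, 29 of 77, with a median log2 fold change of 0.11. It held 54.4 ± 5.54 CPM in standard-low and 51.0 ± 3.59 CPM in low-low. The other stretches held 17, 18 and 13 contigs, with medians from -0.038 to 0.092.

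**Figure D2:**
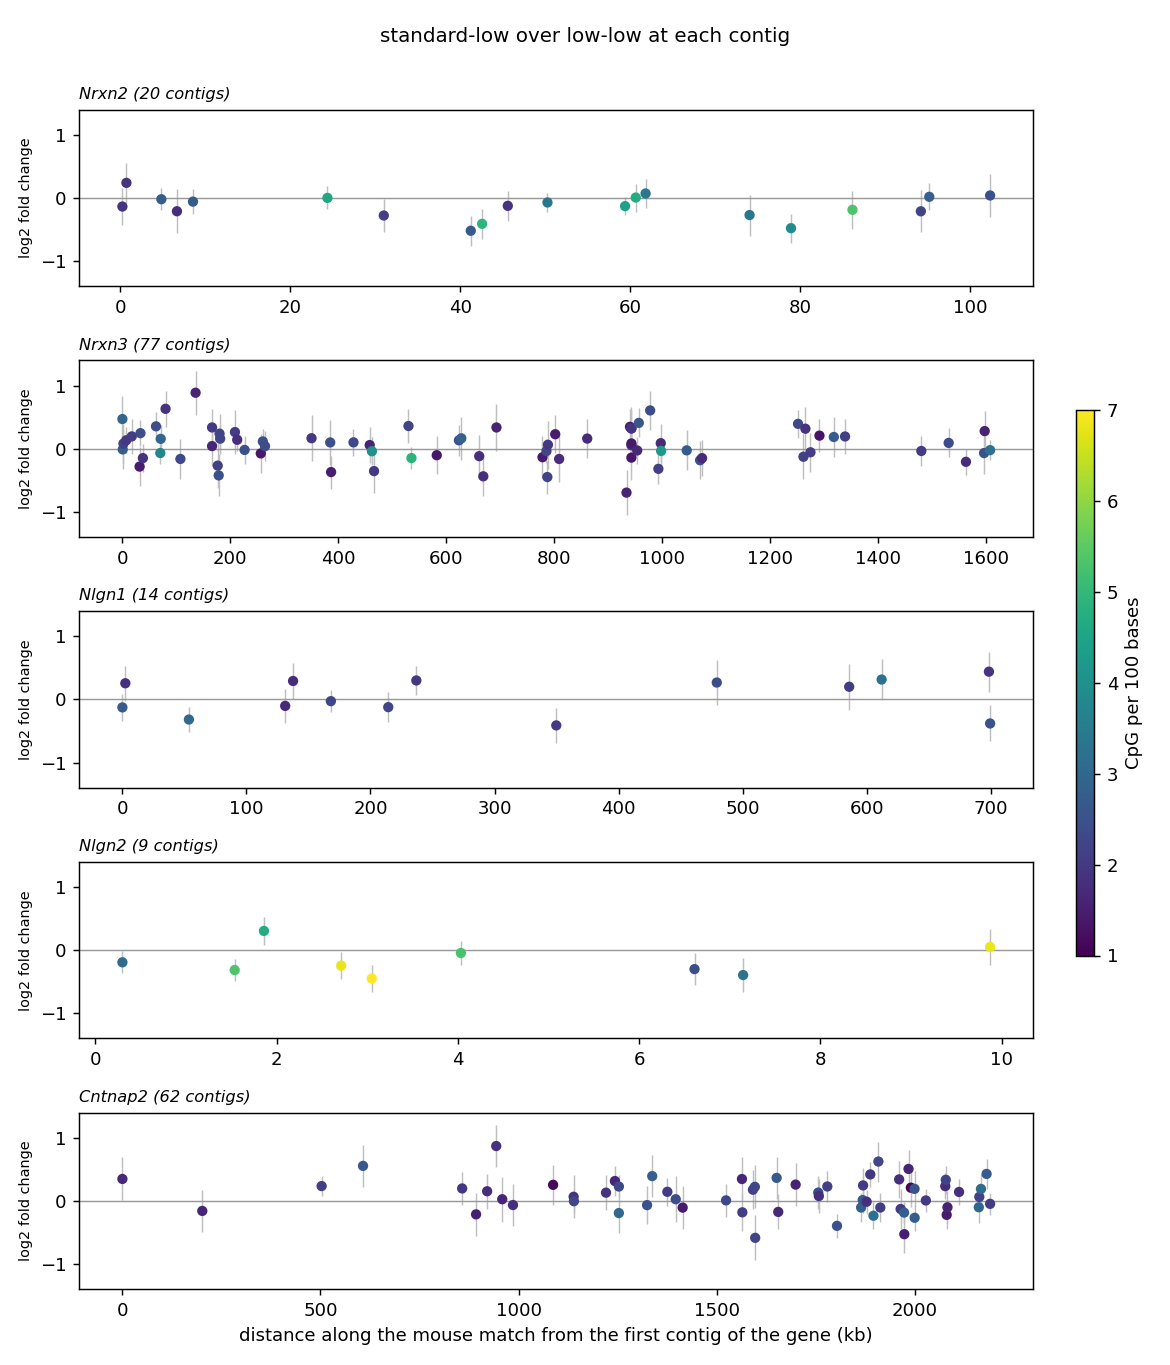
Log2 fold change of standard-low over low-low (vertical axis, with SE bars) at each of the 182 contigs, by distance in kb along the mouse match from the gene's first contig, coloured by CpG per 100 bases. Points of both signs lie along Nrxn3 and Cntnap2, 7 of the 9 Nlgn2 points and 14 of the 20 Nrxn2 points lie below 0, and none passed the adjusted threshold.

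Nlgn1, a neuroligin of excitatory synapses, was read on mouse chromosome 3 from 25433747 to 26133055, at 2.0 contigs per 100 kb. Its summed level was 26.9, 28.3, 22.8 and 24.7 CPM in standard-low, against 23.4, 24.4, 28.1 and 27.4 CPM in low-low. The libraries of the groups interleaved. The means were 25.6 ± 2.41 CPM in standard-low and 25.8 ± 2.30 CPM in low-low (SD, n = 4 each), with a log2 fold change of -0.0088 ± 0.0869 (SE; edgeR adjusted p = 0.992), and its sign turned with the library left out or with scaling by library totals. Signs were even among the contigs, 7 positive and 7 negative, and 0 had an unadjusted p under 0.05.

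At Nlgn1 contig 3375144 every standard-low library lay below every low-low library, with 2.40, 2.11, 2.65 and 2.45 CPM in standard-low, against 2.83, 2.90, 3.05 and 3.23 CPM in low-low (log2 fold change -0.32 ± 0.205 SE, edgeR unadjusted p = 0.123 and adjusted p = 0.911). Its mouse match covers 92 of 564 bases, at 25487505 to 25487596. Weak matches were common in this gene, with 6 of 14 contigs aligned over fewer than 100 bases. The most captured contig, 3029041, held 4.71 ± 1.11 CPM in standard-low and 4.80 ± 0.795 CPM in low-low. The densest in CpG, 4619301, held 1.20 ± 0.332 CPM in standard-low and 0.97 ± 0.437 CPM in low-low, on a match of 42 bases.

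Nlgn2, the neuroligin of inhibitory synapses, is the most compact, with 9 contigs within 9.98 kb of mouse chromosome 11, from 69824119 to 69834094. Its summed level was 24.7, 19.7, 30.3 and 20.03 CPM in standard-low, against 23.5, 27.8, 29.9 and 26.7 CPM in low-low. Standard-low 2 and 4 were below all low-low libraries and standard-low 3 above all of them. The means were 23.7 ± 4.94 CPM in standard-low and 27.0 ± 2.64 CPM in low-low (SD, n = 4 each), a log2 fold change of -0.19 ± 0.112 (SE; edgeR adjusted p = 0.812). This was the most negative value of the 5 genes, and 14.7% of all genes had a lower one. The spread was 20.9% of the mean in standard-low and 9.79% in low-low, against 5.96% and 5.34% from counting alone. Without standard-low 3 the log2 fold change was -0.33 (edgeR adjusted p = 0.115), and without standard-low 2 it was -0.11.

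Among the 9 Nlgn2 contigs, 7 had a negative log2 fold change, with a median of -0.25. Contig 3789378, whose stretch is printed above, had the lowest p and also the densest CpG of all members, at 7.30 per 100 bases, and matched positions 69826982 to 69827355. It had 2.22, 1.69, 4.64 and 2.28 CPM in standard-low, against 2.52, 3.79, 4.09 and 4.45 CPM in low-low. Standard-low 3 was the highest of the 8 and the other 3 standard-low libraries were the lowest (log2 fold change -0.45 ± 0.212 SE, edgeR unadjusted p = 0.0369 and adjusted p = 0.866). Without standard-low 3 the log2 fold change of contig 3789378 was -0.84 (edgeR adjusted p = 0.206), and without standard-low 2 it was -0.28 (edgeR adjusted p = 0.961). The most captured contig, 1166045, held 4.08 ± 1.19 CPM in standard-low and 4.22 ± 1.14 CPM in low-low (SD, n = 4 each). Standard-low 3 exceeded standard-low 2 at 7 of the 9 contigs here and at 14 of 20 in Nrxn2, but at 22 of 77 in Nrxn3 and 25 of 62 in Cntnap2.

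Cntnap2 was covered over 2191 kb of mouse chromosome 6, from 45108449 to 47299176, at 2.83 contigs per 100 kb. Its summed level was 115, 128, 122 and 116.3 CPM in standard-low, against 116.3, 109.9, 116 and 117 CPM in low-low. Standard-low 2 and 3 lay above all low-low libraries and standard-low 1 and 4 among them. The means were 120.3 ± 5.71 CPM in standard-low and 115 ± 3.19 CPM in low-low (SD, n = 4 each), a log2 fold change of 0.07 ± 0.0485 (SE; edgeR adjusted p = 0.825). This was the tightest estimate of the 5. Positive values were found at 39 contigs and negative ones at 23, with a median of 0.10.

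The Cntnap2 contig with the lowest p among all members, 1312323 at 46051906 to 46052352, had 1.45, 1.94, 0.663 and 1.61 CPM in standard-low, against 0.84, 0.966, 0.803 and 0.461 CPM in low-low. Standard-low 3 fell within the low-low range, and the contig averaged 13.4 counts per library (log2 fold change 0.87 ± 0.329 SE, edgeR unadjusted p = 0.00974 and adjusted p = 0.802). Contig 4101629 was lower in all 4 standard-low libraries, at 1.01 ± 0.0819 CPM in standard-low and 1.47 ± 0.33 CPM in low-low (SD, n = 4 each; edgeR adjusted p = 0.894). The most captured contig, 1059292, held 6.03 ± 1.45 CPM in standard-low and 5.12 ± 0.45 CPM in low-low. The densest in CpG, 4209365, held 2.38 ± 0.173 CPM in standard-low and 2.80 ± 0.605 CPM in low-low. Contigs thickened toward higher coordinates, with 3, 8, 17 and 34 in successive stretches of the span. The median log2 fold change was positive in each stretch, from 0.066 to 0.24, and the last stretch held 76.1 ± 4.13 CPM in standard-low and 74.3 ± 1.06 CPM in low-low.

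Levels can be set beside each other per length of listed contig. No contig with a summed count under 81 is listed, so stretches of a gene captured less do not enter these levels. On that scale Nrxn2 had 4.09 ± 0.724 CPM per kb in standard-low and 4.45 ± 0.228 in low-low, and Nlgn2 had 4.01 ± 0.835 in standard-low and 4.56 ± 0.447 in low-low (SD, n = 4 each). Nlgn1 followed with 3.97 ± 0.372 CPM per kb in standard-low and 3.99 ± 0.355 in low-low. These 3 levels lay within their spreads in standard-low, as did Nlgn2 and Nrxn2 in low-low. Nrxn3 had 3.25 ± 0.279 CPM per kb in standard-low and 3.14 ± 0.135 in low-low. Cntnap2 was lowest, with 3.03 ± 0.144 CPM per kb in standard-low and 2.89 ± 0.0805 in low-low, and its gap to Nrxn3 was within the spread in standard-low. Counted per CpG the order changed. Nlgn2 was then lowest, with 8.25 ± 1.72 CPM per 100 CpG in standard-low and 9.40 ± 0.92 in low-low, and Nlgn1 highest, with 17.6 ± 1.65 in standard-low and 17.7 ± 1.57 in low-low.

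Sequence content divides the genes. The contigs of Nlgn2 had a median of 5.25 CpG per 100 bases and 63.6% G and C, and those of Nrxn2 2.80 and 57.0%. Nrxn3, Nlgn1 and Cntnap2 had medians of 2.07, 2.15 and 2.05 CpG per 100 bases, near the 2.16 of the whole table. Of the 14 member contigs with 4 or more CpG per 100 bases, 6 lie in Nlgn2, 5 in Nrxn2 and 3 in Nrxn3.

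Over the whole table the difference between the groups moved with CpG content. The median log2 fold change was 0.07 for contigs with fewer than 2 CpG per 100 bases, -0.03 for those with 2 to under 4, and -0.16 for those with 4 or more. The corresponding member medians were 0.08 over 72 contigs, 0.01 over 96 and -0.09 over 14. The class of 4 or more took 4.54%, 4.08%, 5.24% and 4.24% of all counts in standard-low libraries 1 to 4, against 4.61%, 5.16%, 5.16% and 5.10% in low-low libraries 1 to 4. Standard-low 3 was the highest of the 8, as in Nrxn2 and Nlgn2, and the other 3 standard-low libraries the lowest. With offsets that centre every library within 20 classes of CpG content, an alternative added after the data were seen, the gene log2 fold change was -0.03 ± 0.0674 (SE) for Nrxn2 and -0.06 ± 0.0825 for Nlgn2. It was 0.05 ± 0.0524 for Nrxn3, -0.0036 ± 0.0822 for Nlgn1 and 0.06 ± 0.0459 for Cntnap2 under the same offsets. The Nrxn2 and Nlgn2 values are thus nearer to 0 with the offsets, and the others close to those without. The offsets take out any group difference shared by a CpG class. A shift toward 0 in genes with many CpG-dense contigs therefore follows in part from their construction. What sets the libraries apart in CpG content was not tested.

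**Figure D3:**
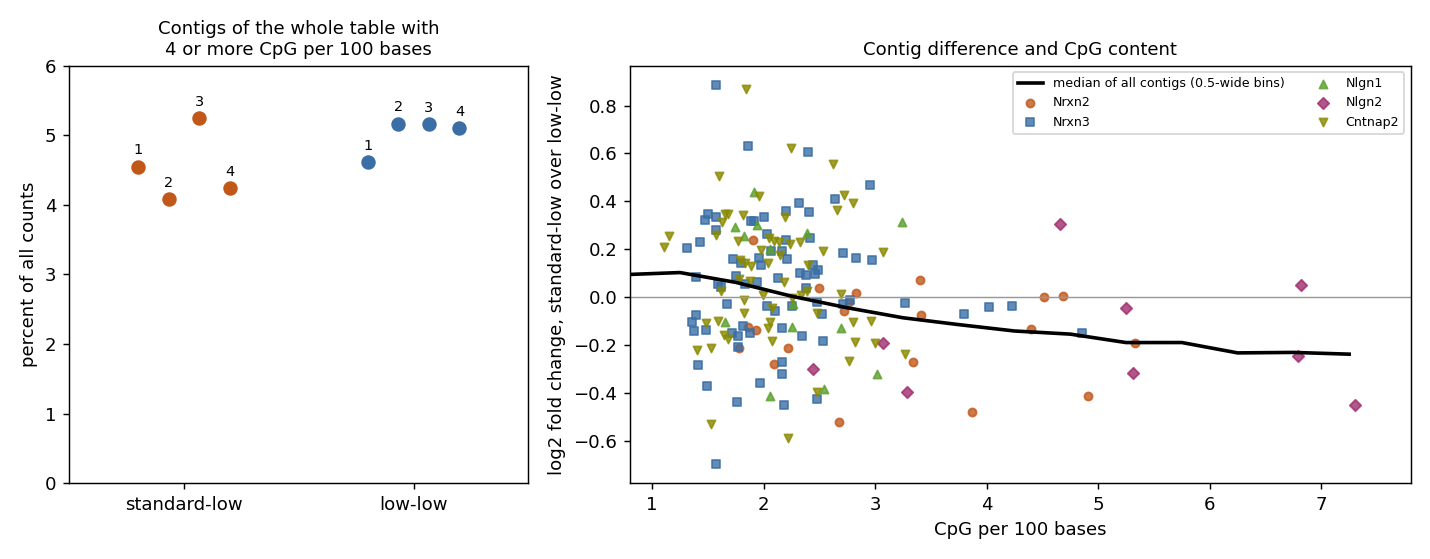
Left, percent of all counts in contigs with 4 or more CpG per 100 bases for each numbered library of standard-low and low-low; right, log2 fold change of each member contig (symbol by gene) against its CpG per 100 bases, with the median of all contigs in bins 0.5 wide as a line. Standard-low 3 sits at 5.24% and the other standard-low libraries at 4.08% to 4.54%. The line lies above 0 at low CpG content and reaches -0.24 in the last bin. That bin is not 0.5 wide but pools all contigs with 7 or more CpG per 100 bases.

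The share of counts in the most counted 1% of contigs also differed, at 4.44% to 5.24% in standard-low and 5.09% to 5.25% in low-low. With that share as a covariate the log2 fold change was 0.11 for Nrxn2, 0.073 for Nlgn2, -0.062 for Nrxn3, -0.10 for Nlgn1 and 0.035 for Cntnap2, so the first 3 change sign, and adjusted p was 0.698 or more (edgeR). The contigs with the lowest p also lay nearer to 0 with the covariate, at -0.28 for Nrxn2 contig 2383664, 0.51 for Nrxn3 contig 4154081, -0.19 for Nlgn1 contig 3375144, 0.11 for Nlgn2 contig 3789378 and 0.30 for Cntnap2 contig 1312323. Their smallest unadjusted p was then 0.255 (edgeR). The direction of Cntnap2 alone was the same in all of the 18 alternatives, among which the fit with no filter repeats the main fit.

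**Figure D4:**
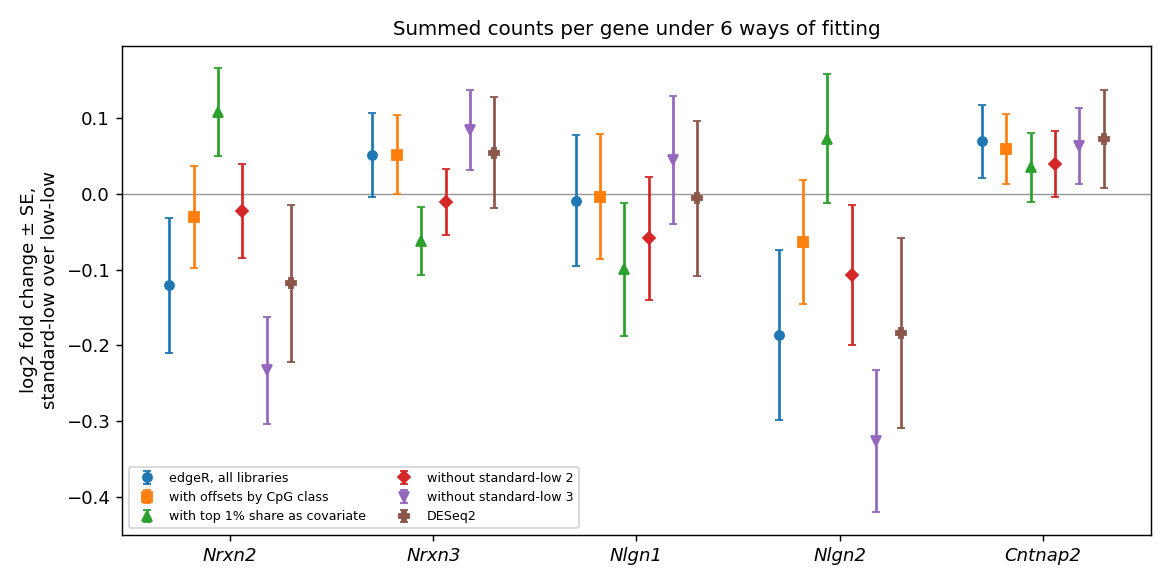
Log2 fold change of standard-low over low-low with SE (vertical axis) for the summed counts of each gene under 6 ways of fitting, among them leaving out standard-low 2 or standard-low 3. Nrxn2 spans -0.23 to 0.11 and Nlgn2 -0.33 to 0.073, while Cntnap2 stays above 0.

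Genes that act with these proteins were read from lists of related genes. Of 20 listed symbols of neurexin ligands and synaptic regulators 14 had contigs, and 0 passed an adjusted p of 0.05 on summed counts. The latrophilin genes are listed under both old and new symbols (Lphn1 to Lphn3 and Adgrl1 to Adgrl3). They were measured under the old ones, so fewer distinct genes are listed than symbols. At an unadjusted p under 0.05 there was 1 higher (1.7% of all genes) and 1 lower (4.33% of all genes), and the median log2 fold change was 0.04, against -0.03 over all genes. The lowest p was that of Nxph1, a neurexophilin that binds alpha-neurexins. It held 20.2, 21.7, 20.1 and 20.8 CPM in standard-low, against 16.8, 17.7, 17.7 and 18.9 CPM in low-low. All standard-low libraries lay above the low-low libraries (log2 fold change 0.22 ± 0.0822 SE, edgeR unadjusted p = 0.0145 and adjusted p = 0.805).

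Scaffolds and cytoplasmic partners had 18 of 19 genes measured over 550 contigs, with 0 passing and a median of -0.05. At an edgeR unadjusted p under 0.05, 1 was higher (1.7% of all genes) and 3 were lower (4.33% of all genes). Dlgap4, a protein of the postsynaptic density, had the lowest p, with 46.1 ± 6.04 CPM in standard-low and 53.0 ± 2.02 CPM in low-low (SD, n = 4 each), and 1 standard-low library lay within the low-low range (edgeR adjusted p = 0.805). Contactins and other Cntnap genes were all measured, 12 of 12, with 0 passing, 1 higher and 0 lower at that level, and a median of 0.07. Cntn3, a contactin, held 9.84, 10.04, 9.53 and 11.3 CPM in standard-low, against 7.95, 8.17, 8.43 and 9.37 CPM in low-low, again without overlap (log2 fold change 0.26 ± 0.111 SE, edgeR adjusted p = 0.805). Cntn1 and Cntn5 of this list and Dlg2 of the scaffolds also lay higher without overlap (3.49% of all genes did not overlap, both directions counted). The margins were small, with lowest standard-low and highest low-low values of 30.67 and 30.56 CPM for Cntn1 and 40.9 and 40.6 CPM for Cntn5. For Dlg2 they were 78.2 and 77.8 CPM, and edgeR adjusted p was 0.805 or more for each of these genes. Nlgn3, a neuroligin outside the rule with 1 contig, held 1.27 ± 0.54 CPM in standard-low and 1.24 ± 0.414 CPM in low-low (SD, n = 4 each; edgeR adjusted p = 0.995).

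Markers of the cell types a hypothalamic sample can hold also had 0 genes passing. At an unadjusted p under 0.05, 6 of 127 contigs were counted for neurons, 6 of 25 for oligodendrocytes (24.0%, against 5.68% of the table; 3 of the 6 lie in Cnp, whose summed log2 fold change was 0.031), 4 of 41 for astrocytes, 2 of 52 for microglia and 6 of 125 for endothelium. On summed counts the neuron list had 3 genes with a positive and 3 with a negative log2 fold change (median -0.019), oligodendrocytes 2 and 3 (median -0.16) and astrocytes 2 and 3 (median -0.12). Microglia had 0 positive and 5 negative (median -0.081), and endothelium 4 positive and 0 negative (median 0.011). Members of the first 3 lists thus went both ways, and the genes below do not stand for their lists. The gene with the lowest p for neurons was Syt1, with 48.4 ± 4.03 CPM in standard-low and 45.7 ± 1.91 CPM in low-low (SD, n = 4 each, here and for the next 4 genes). For oligodendrocytes it was Sox10, with 6.54 ± 1.55 CPM in standard-low and 8.49 ± 1.09 CPM in low-low (edgeR adjusted p = 0.805). For microglia it was Tmem119, where standard-low lay below low-low without overlap, at 4.05 ± 0.988 CPM in standard-low and 5.94 ± 0.836 CPM in low-low (edgeR adjusted p = 0.805). These last 2 were the marker genes with an unadjusted p under 0.05. Slc1a2, of astrocytes, held 23.3 ± 2.55 CPM in standard-low and 20.8 ± 2.40 CPM in low-low, and Tek, of endothelium, 33.4 ± 2.83 CPM in standard-low and 32.6 ± 1.03 CPM in low-low. Whether cell composition has a part in any member value was not tested.

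Library profiles place the 5 genes beside others with at least 20 contigs. The measure is the root mean square difference of log2 CPM over the 8 libraries after each gene is centred on its own mean, so a smaller value means a closer profile. Nearest to Nrxn2 were Arap1, Itpr3 and Myo7a, at 0.0403 to 0.0497, where the median gene stood at 0.173. Among the nearest to Nlgn2 were Ptprs at 0.0804 and Plxnd1 at 0.0905, against a median of 0.217. Npas3, Grm8 and Macrod2 were nearest to Nrxn3, at 0.0271 to 0.0304 (median 0.114), and Taf1, Dennd2a and Tcf7l2 to Cntnap2, at 0.0268 to 0.0323 (median 0.0936). Nlgn1 was closest to Astn2, Ncoa2 and Gm12239, at 0.0577 to 0.0633 (median 0.139). Among the members, Nrxn3 and Cntnap2 differed by 0.0782 and Nrxn2 and Nlgn2 by 0.126, while Nrxn2 and Nrxn3 differed by 0.26 and Nlgn1 and Nlgn2 by 0.268. All genes share the same 8 libraries, and profiles of genes with few counts also carry counting error.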

How the data were processed

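The authors deposited a table of read counts per assembled contig for 8 MethylMiner libraries, as whole numbers with no scaling, per the file headers. FastQC and BWA are named in the submitters' processing notes, without versions. The assembler, the mouse build of the matches, the exon or intron at each position and the handling of multiply mapped reads were not given in the sources used here. The header separates library names by spaces and the values by tabs, so columns follow the order of the header. The lowest summed count per contig was 81, and requiring a mean of at least 10 counts removed 0 contigs.

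Gene membership, names and positions come from the contig names and rest on similarity to mouse, and all 5 symbols are also in the RefSeq gene table of the sand rat. Of the 182 member contigs 39 align to mouse over fewer than 100 bases, down to 28. Near-identical genes could share reads.

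Contigs, and counts summed per gene symbol over contigs at distance 0, entered edgeR 4.0.16 under R 4.3.3 (TMM factors of the contig table, estimateDisp, glmQLFit and a two-sided glmQLFTest, standard-low over low-low) over all 548060 contigs or 18910 genes, with Benjamini-Hochberg adjustment at 0.05. The test was checked on simulated counts. The labels do not say that libraries are separate animals or litters. The p-values therefore set the group difference against the spread between these samples, which may be technical.

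Members and gene lists were chosen with earlier results of these data known. In each gene the contigs named are the one with the lowest p, the most captured and the densest in CpG, and for each list the gene with the lowest p. Other contigs without overlap between groups were named after their values were seen. For likeness, the 3 nearest genes with at least 20 contigs are named. Some genes these rules name are not reported here. Alternatives were DESeq2 1.42.0, limma 3.58.1 voom with and without cyclic loess, library totals, a mean of 20 counts, no filter, alignments of at least 100 bases, a replicate block, a covariate, leaving out each library and, added later, offsets by CpG class.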

Additional observations from a re-analysis of the deposited data

Results flagged for a closer look

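Among 56 groups of 4 libraries examined, 2 held a library far from the others, its gap to the nearest, as a share of the group's range, exceeding Dixon's 95% critical value, and chance flags about 1 in 20 groups. At Cntnap2 contig 1059292 standard-low 2 was low, at 3.88 CPM, against 6.42 to 6.93 CPM in the other standard-low libraries and 4.46 to 5.46 CPM in low-low. At Nrxn2 contig 1816667 low-low 3 was high, at 16.8 CPM, against 13.1 to 13.7 CPM in the other low-low libraries.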

How the results depend on the processing

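No member contig and none of the 5 gene sums passed the adjusted threshold in any of the 18 alternatives, planned or added. The alternative with no filter repeats the main fit, since the filter removed 0 contigs. Unadjusted p fell under 0.05 for 3 gene sums, at 0.00271 for Nrxn2 and 0.00163 for Nlgn2 without standard-low 3, 0.0481 for Nlgn2 with the replicate block and 0.0389 for Cntnap2 with limma voom and cyclic loess. Counts of contigs past the threshold in the table were 147 with edgeR, 32 with DESeq2, 50 with limma voom, 68 with voom and cyclic loess, 81 at a mean of 20 counts and 7 among alignments of at least 100 bases, where fewer contigs are tested. They ran from 68 to 207 when 1 library was left out, with 68 without low-low 2 and 97 without standard-low 4. Genes past it numbered 1 with edgeR, 0 with limma voom, with cyclic loess and with offsets by CpG class, 11 with the top 1% share as covariate and 0 to 27 with 1 library left out (7 without standard-low 2, 27 without standard-low 3, 0 without any other). Member contigs at an unadjusted p under 0.05 were 9 with edgeR, 2 with DESeq2, 2 at a mean of 20 counts and 5 to 11 with 1 library left out (5 without standard-low 2). At a mean of 20 counts only 221973 of the 548060 contigs were tested, and members with fewer counts were left out. The median member contig had 17.9 counts per library, so that value does not compare with those over all members.

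Directions were unstable. With the top 1% share as covariate the log2 fold change turned to 0.11 for Nrxn2, -0.062 for Nrxn3 and 0.073 for Nlgn2 summed counts, to 0.24 and 0.14 for Nrxn2 contigs 1816667 and 3323076, to 0.0084 for Nrxn3 contig 3587597, to 0.11 and 0.31 for Nlgn2 contigs 3789378 and 1166045, and to -0.029 for Syt1 and -0.056 for Tek. With offsets by CpG class it turned to 0.0096 for Nrxn2 contig 1816667, 0.072 and 0.00071 for Nrxn3 contigs 2666316 and 3587597, and 0.10 for Nlgn2 contig 1166045. With cyclic loess it turned to 0.039 for Nlgn1 summed counts, 0.036 for contig 3029041 and 0.071 and 0.0196 for contigs 2666316 and 1166045. Nlgn1 summed counts also turned to 0.0053 with library totals and 0.031 with alignments of at least 100 bases. At a mean of 20 counts contigs 2666316 and 3029041 turned to 0.015 and 0.011. The cause was not tested.

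With 1 library left out the log2 fold change of summed counts ran from -0.23 to -0.023 for Nrxn2, -0.0104 to 0.085 for Nrxn3, -0.058 to 0.044 for Nlgn1, -0.33 to -0.11 for Nlgn2, 0.039 to 0.089 for Cntnap2 and -0.0015 to 0.078 for Tek. For contigs it ran from -0.28 to 0.044 (1816667), -0.32 to 0.0026 (3323076), -0.069 to 0.0398 (2666316), -0.15 to 0.11 (3029041) and -0.23 to 0.13 (1166045). The 4 contigs named for the lowest p in Nrxn2, Nrxn3, Nlgn2 and Cntnap2 each had an unadjusted p above 0.05 with at least 1 library left out, and Nlgn2 contig 3789378 ran from -0.84 to -0.28. The median member contig had 17.9 counts per library, and counting error adds to the spread at single contigs.

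Whether replicate numbers pair the libraries cannot be told from these values, since all the correlations are small. Same-numbered deviations correlated at 0.0137, 0.0317, 0.0303 and -0.0107 for replicates 1 to 4. Standard-low 1, 2 and 3 each correlated most with the same-numbered low-low library, and standard-low 4 with low-low 1 (0.0341). With the replicate number as a block 206 contigs and 2 genes passed, and the log2 fold change of Nlgn2 was -0.20 and that of Nrxn2 -0.13.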
